A study of Mus musculus with 6 samples.

Results

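The genes described here encode the translation initiation factors of the mouse, numbered eIF1 to eIF6, together with the kinases that phosphorylate eIF2 and the proteins that bind eIF4E. They were taken as all genes in the array annotation whose symbol begins with Eif followed by a digit from 1 to 6, and 51 of the 25206 probe sets on the array matched, each for a different gene. Of these, 50 were sorted into complexes. The remaining symbol, Eif2c5, is annotated as a long non-coding RNA, and its synonym is an Argonaute name. Eif1-ps3 is annotated as a pseudogene. Probe sets with no symbol in that annotation were tested but not named, so the counts of members and subunits below cover only the 51 named genes and not whole complexes. Eif2s1, Eif2s3x, Eif4g1 and Eif1 are among the symbols absent from the 51, so nothing is said of them.

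The cells were mouse macrophages derived from bone marrow. JG-98, which inhibits chaperones of the Hsp70 family, had been given to 3 samples for 16 hours at 0.3 micromole, and the 3 control samples were untreated. No volume for that amount, vehicle, strain, sex or age is stated in the labels. Each sample was hybridised to 1 single-colour Affymetrix array, and the deposited values are on the log2 scale, so a difference of 1 is a doubling.

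Initiation begins when eIF2, carrying GTP and the initiator tRNA, joins the small ribosomal subunit together with eIF1, eIF1A, eIF3 and eIF5. The eIF4F complex, made of the cap-binding protein eIF4E, the scaffold eIF4G and the helicase eIF4A, brings the mRNA. After start codon recognition eIF2 leaves with GDP, and eIF2B reloads it with GTP. Stress kinases phosphorylate eIF2, which blocks eIF2B, lowers translation in general and raises translation of ATF4, a transcription factor of amino acid and stress genes. The eIF4E-binding proteins hold eIF4E away from eIF4G until the kinase mTORC1 phosphorylates them.

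None of the 51 named genes passed the test for a difference between JG-98 and control macrophages. In limma, with Benjamini-Hochberg adjustment over all probe sets, 0 of 51 members had an adjusted p under 0.05, where 0.0397% of all probe sets did (8 higher, or 0.0317%, and 2 lower, or 0.00793%). The smallest adjusted p of a member was 0.43. At an unadjusted p under 0.05 there were 4 members higher with JG-98 (Eif3b, Eif3c, Eif4g2 and Eif5) and 1 lower (Eif4ebp2), against 3.84% and 4.48% of all probe sets. That is 9.8% of the members, against 8.32% of all probe sets. All 5 were among the 43 members with a mean log2 value of 6 or more, and in that range 5.75% of all probe sets were higher and 7.68% lower. Separate cultures or animals are not stated for the replicates, so the variation that the p-values rest on may be technical.

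The differences were small in both directions. They ranged from -0.18 for Eif4ebp2 to 0.35 for the pseudogene Eif1-ps3 on the log2 scale, with 30 members above 0 and 21 below. Above 0 were 58.8% of the members and 50.3% of all probe sets, and, at a mean of 6 or more, 25 of 43 members and 46.6% of probe sets. Their median was 0.039, and the median over all probe sets was 0.001. At a mean of 6 or more these medians were 0.031 and -0.01. For 45 of the 51 members the 95% interval of the difference lay wholly within 0.5 on either side of 0, which is a change of 1.41-fold. The exceptions were Eif1-ps3, Eif2s3y, Eif3e, Eif4a1, Eif4a3 and Eif4e1b, whose intervals were wider. Among probe sets with a mean of 6 or more, 93% of the members and 93.2% of all probe sets had such narrow intervals.

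**Figure D1:**
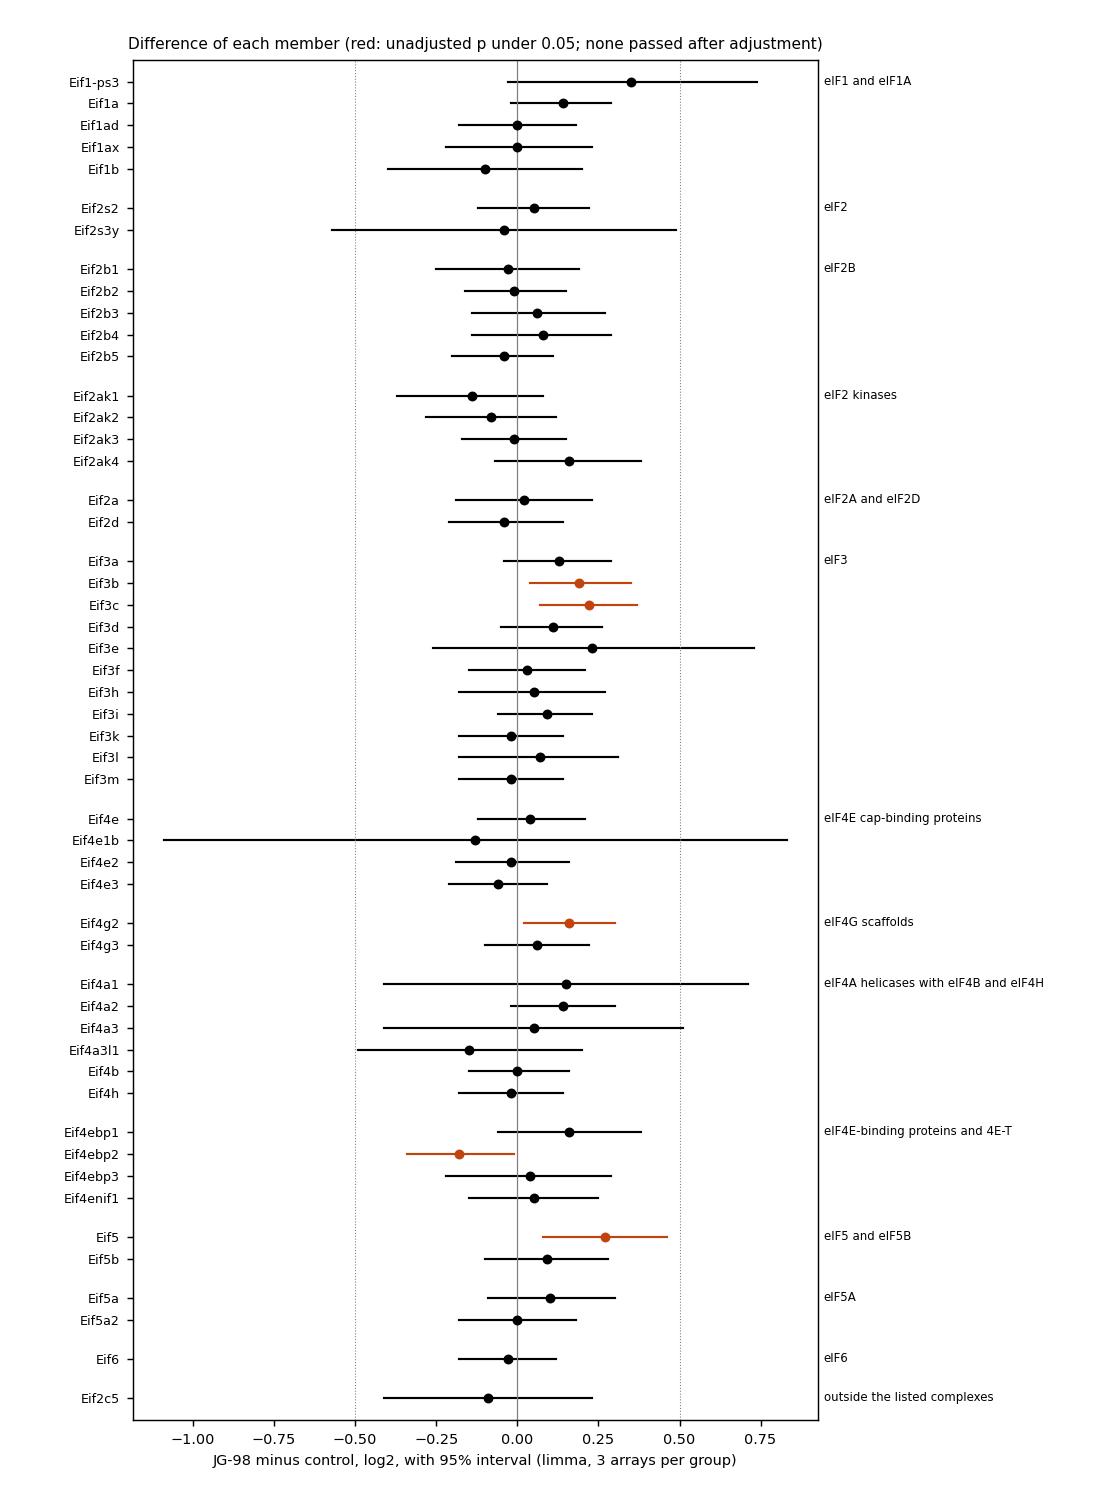
Log2 difference (JG-98 minus control, x axis) of each of the 51 members with its 95% limma interval, grouped by complex, from 3 arrays per group. Points in red had an unadjusted p under 0.05, dotted lines mark 0.5 on either side of 0, and 45 of the 51 intervals lie between them.

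Before the single genes, the state of the arrays is given. The array median was 4.24 for JG-98 replicate 3 and 4.08 to 4.15 for the other arrays. Across probe sets, Pearson correlations were 0.992 to 0.993 for pairs that included JG-98 replicate 3, and 0.995 to 0.996 for all other pairs. Among the 3 JG-98 arrays, replicate 3 held the lowest value for 37 of the 51 members, which is 72.5%. For all probe sets with a mean of 6 or more that share was 57.9%, and for all probe sets 34%. All 8 measured macrophage markers lay at or above percentile 90.5 of probe set means, and their mean level was 10.23 to 10.31 on the JG-98 arrays, against 10.34 to 10.38 on the control arrays. None of the markers of neutrophils, dendritic cells, B cells, T and NK cells, erythroid, mast, stromal or endothelial cells reached a mean of 6.

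For 4 of the 5 members apart at an unadjusted p under 0.05, all but Eif4g2, a promoter from a RefSeq table is shown. These members were nearest to a difference, and their promoters can be searched for binding motifs. Each is the 250 bases before the annotated start in build GRCm38.p6, read 5′ to 3′ on the gene's strand. The Asns promoter is added because the ATF4 element was described in that gene, which makes asparagine. Capitals mark matches on either strand to 3 motifs, and no match shown overlaps another: TGATGNAA, the composite element of ATF4 and C/EBP proteins; CACGTG, the E-box bound by MYC; and CCGGAAG, the core bound by ETS factors.
Eif5 (chr12:111537851-111538100, plus strand): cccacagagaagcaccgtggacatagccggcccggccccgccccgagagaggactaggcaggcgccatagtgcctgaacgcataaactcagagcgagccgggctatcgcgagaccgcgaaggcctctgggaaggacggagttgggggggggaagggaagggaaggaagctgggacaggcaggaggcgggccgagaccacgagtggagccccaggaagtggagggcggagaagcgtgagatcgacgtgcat
Eif3c (chr7:126566367-126566616, minus strand): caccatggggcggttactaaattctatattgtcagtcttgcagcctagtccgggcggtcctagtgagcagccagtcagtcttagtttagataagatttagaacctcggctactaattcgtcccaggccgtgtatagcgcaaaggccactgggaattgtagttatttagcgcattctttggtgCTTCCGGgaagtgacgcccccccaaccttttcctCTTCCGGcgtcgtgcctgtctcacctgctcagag
Eif3b (chr5:140419055-140419304, plus strand): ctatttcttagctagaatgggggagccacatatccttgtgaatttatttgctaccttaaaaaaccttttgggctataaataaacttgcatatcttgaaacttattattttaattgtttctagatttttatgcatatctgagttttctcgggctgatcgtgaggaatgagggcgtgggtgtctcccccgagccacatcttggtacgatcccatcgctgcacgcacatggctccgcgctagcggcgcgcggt
Eif4ebp2 (chr10:61452670-61452919, minus strand): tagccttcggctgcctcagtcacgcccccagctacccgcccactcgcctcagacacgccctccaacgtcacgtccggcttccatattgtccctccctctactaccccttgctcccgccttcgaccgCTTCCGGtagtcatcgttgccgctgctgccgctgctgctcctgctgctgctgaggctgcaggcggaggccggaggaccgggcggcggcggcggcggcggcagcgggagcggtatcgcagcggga
Asns (chr6:7693210-7693459, minus strand): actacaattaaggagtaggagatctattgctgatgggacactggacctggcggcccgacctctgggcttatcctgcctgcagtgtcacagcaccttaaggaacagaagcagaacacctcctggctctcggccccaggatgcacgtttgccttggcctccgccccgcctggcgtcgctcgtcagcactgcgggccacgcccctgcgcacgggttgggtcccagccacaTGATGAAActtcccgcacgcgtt

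The ATF4 element stood in the Asns promoter, 15 bases before the start, and in none of the 4 member promoters shown. The Eif5 and Eif3b stretches held no match to any of the 3 motifs. The table held 52 promoters for 39 of the 51 members, and 0 of the 52 had a TGATGNAA match within 250 bases, where 3.45% of all 32851 promoters had one. An E-box stood in 19.2% of the member promoters and in 6.02% of all promoters. The ETS core stood in 21.2% of the member promoters and in 6.91% of all. Eif3c carried it at 2 places, 61 and 27 bases before the start, and Eif4ebp2 at 1 place. Member promoters were also richer in G and C, with a median of 61.2% against 52.4% for all promoters. The motifs were chosen with the values known, and a match describes letters and not binding.

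The 4 eIF2 kinases sense different stresses, and none passed the test. Eif2ak1, which encodes the heme-regulated kinase HRI, had log2 values of 8.19, 8.33 and 8.02 in JG-98 macrophages, against 8.32, 8.36 and 8.29 in control macrophages. The lowest values were those of JG-98 replicates 3 and 1, and replicate 2 lay among the controls. The difference was -0.14 ± 0.093 (SE, n = 3 per group; limma unadjusted p = 0.16). Without JG-98 replicate 2 it was -0.22 (limma unadjusted p under 0.05, adjusted p = 0.61), and without JG-98 replicate 3 it was -0.06.

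Eif2ak2 encodes PKR, which binds double-stranded RNA. It had values of 8.29, 8.43 and 8.24 in JG-98 macrophages, against 8.45, 8.46 and 8.29 in control macrophages. The groups overlapped, and the difference was -0.08 ± 0.085. Eif2ak3 encodes PERK, the kinase of the endoplasmic reticulum, and had 7.26, 7.33 and 7.35 in JG-98 macrophages, against 7.29, 7.37 and 7.31 in control macrophages. These 6 values interleaved, and the difference was -0.01, with a 95% interval from -0.17 to 0.15.

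Eif2ak4 encodes GCN2, which senses uncharged tRNA and thereby amino acid shortage. It had 7.27, 7.16 and 6.96 in JG-98 macrophages, against 6.97, 7.01 and 6.94 in control macrophages. JG-98 replicates 1 and 2 lay above all controls and replicate 3 among them. The difference was 0.16 ± 0.094 with all arrays (limma unadjusted p = 0.14), and 0.24 without JG-98 replicate 3 (limma unadjusted p = 0.016, adjusted p = 0.37). Without JG-98 replicate 1 it was 0.084 (limma adjusted p = 0.89). In the fit with all arrays Eif2ak4 was the only kinase of the 4 with a positive difference. The sign of Eif2ak3 turned in 3 of 14 other settings.

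None of the named subunits of eIF2 (Eif2s2 and Eif2s3y) or of its exchange factor eIF2B passed the test. Eif2s2, the beta subunit of eIF2, had 6.97, 7 and 7.03 in JG-98 macrophages, against 6.97, 6.86 and 7.02 in control macrophages, a difference of 0.05 ± 0.071. Eif2s3y, the copy of the gamma subunit on the Y chromosome, had 7.28, 7.52 and 6.64 in JG-98 macrophages, against 7.18, 7.31 and 7.07 in control macrophages. JG-98 replicate 3 held its lowest value and replicate 2 its highest. The difference of -0.04 ± 0.22 became 0.21 without JG-98 replicate 3 (limma unadjusted p = 0.11).

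In eIF2B the differences of the 5 subunits lay between -0.04 and 0.08, with a median of -0.006. Eif2b3, the gamma subunit of the catalytic part, had 6.21, 6.31 and 6.13 in JG-98 macrophages, against 6.22, 6.03 and 6.20 in control macrophages. Eif2b4, the delta subunit of the regulatory part, had 4.41, 4.44 and 4.54 in JG-98 macrophages, against 4.52, 4.25 and 4.38 in control macrophages. Both sets of values overlapped, at differences of 0.06 ± 0.086 and 0.08 ± 0.09. All 5 intervals of this complex lay within 0.5 of 0. The intervals of Eif2b2 ran from -0.16 to 0.15 and of Eif2b5, the catalytic epsilon subunit, from -0.20 to 0.11.

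Eif2a and Eif2d encode factors that can deliver initiator tRNA without eIF2. Eif2a had 8.51, 8.58 and 8.31 in JG-98 macrophages, against 8.45, 8.48 and 8.42 in control macrophages. Eif2d had 6.99, 6.98 and 6.91 in JG-98 macrophages, against 7.10, 6.96 and 6.93 in control macrophages. Neither pair of groups separated, and the differences were 0.02 ± 0.087 and -0.04 ± 0.074.

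**Figure D2:**
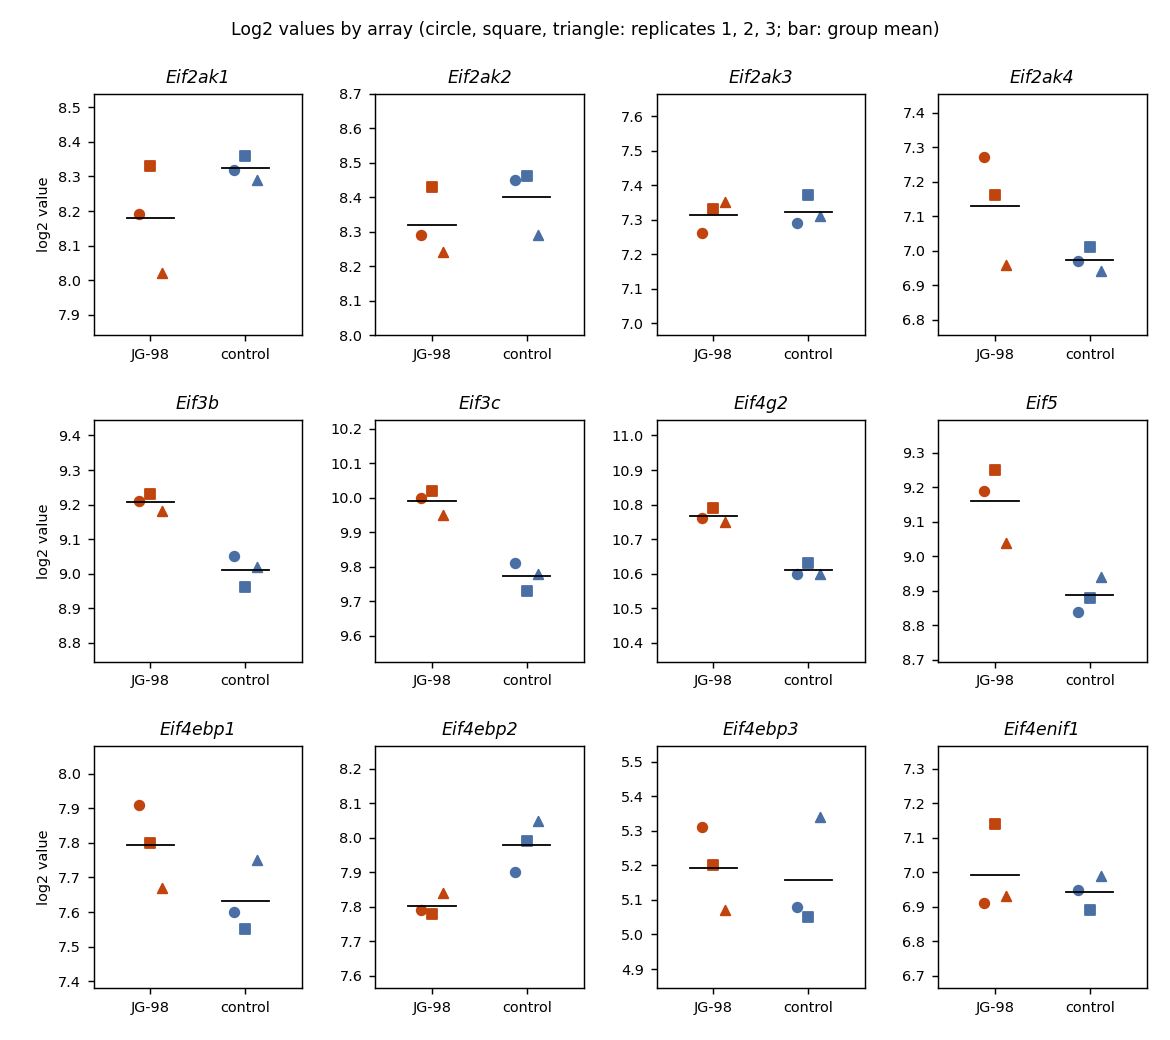
Log2 values on each array (y axis, each panel spanning the same range of 0.7) for the 4 eIF2 kinases, the 4 members higher at an unadjusted p under 0.05, and the eIF4E-binding proteins with 4E-T, JG-98 left of control, with bars for group means. The groups do not overlap in Eif3b, Eif3c, Eif4g2, Eif5 and Eif4ebp2, and they overlap in the other 7 panels.

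The JG-98 range lay entirely above the control range in 9 of the 51 members, where 7.12% of all probe sets and 12.7% of those with a mean of 6 or more did. These were Eif1a, Eif3a, Eif3b, Eif3c, Eif3d, Eif3i, Eif4a2, Eif4g2 and Eif5. Among the members it lay entirely below the control range in Eif4ebp2 alone, where 8.44% of all probe sets and 16.7% of those with a mean of 6 or more did. Thus 17.6% of members stood apart upward and 1.96% downward.

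In eIF3, the largest of the initiation complexes, 0 of 11 named subunits passed. Of these, 9 had a positive difference, against 50.3% of all probe sets and 46.6% at a mean of 6 or more. The median was 0.087, against 0.001 over all probe sets and -0.01 over those with a mean of 6 or more. In 5 of the 11 the groups did not overlap, all upward, against 7.12% of all probe sets and 12.7% at that mean. Eif3c, a subunit that binds eIF1 and eIF5, had 10, 10.02 and 9.95 in JG-98 macrophages, against 9.81, 9.73 and 9.78 in control macrophages. Every JG-98 value exceeded every control value by more than the spread within either group. The difference was 0.22 ± 0.063, or 1.17-fold (limma unadjusted p = 0.011, adjusted p = 0.43). With an intensity trend in the variance prior it passed (limma adjusted p = 0.025), and it also did when only probe sets with a mean of 6 or more were tested (limma adjusted p = 0.038). Eif3c did not pass after median centring (limma adjusted p = 0.85), with a replicate block (0.67) or without any 1 array (0.35 to 0.79). With the trend 0.504% of probe sets passed as higher and 0.504% as lower. Among those with a mean of 6 or more, 2.17% passed as higher and 2.6% as lower. With array weights 0 members passed, where 0.0674% of probe sets were higher and 0.0317% lower.

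Eif3b, the scaffold subunit with an RNA recognition motif, had 9.21, 9.23 and 9.18 in JG-98 macrophages, against 9.05, 8.96 and 9.02 in control macrophages. Its groups also stood apart, by 0.19 ± 0.063 (limma unadjusted p = 0.019, adjusted p = 0.50). Eif3a, the largest subunit, Eif3d, which can bind the cap of some mRNAs, and Eif3i differed by 0.13 ± 0.069, 0.11 ± 0.063 and 0.09 ± 0.062. Their JG-98 values, too, lay above all control values.

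Eif3e, a subunit whose value depended on a single array, was chosen after its values were seen. It had 7.70, 7.63 and 6.91 in JG-98 macrophages, against 7.26, 7.15 and 7.13 in control macrophages. JG-98 replicates 1 and 2 were the highest of the 6 arrays and replicate 3 the lowest. The difference was 0.23 ± 0.21 with all arrays, and 0.49 without JG-98 replicate 3 (limma unadjusted p = 0.00081, adjusted p = 0.25). Over all settings it ran from 0.09 to 0.49. The other subunits Eif3f, Eif3h, Eif3k, Eif3l and Eif3m had differences from -0.02 to 0.07. Without JG-98 replicate 3 the median of the complex was 0.127, against 0.010 over probe sets with a mean of 6 or more. Of its differences 10 of 11 were then positive, against 44.9% of all probe sets and 53.7% at a mean of 6 or more.

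Among the factors that bring mRNA to the ribosome, Eif4g2 had the smallest p. Eif4g2, a scaffold related to eIF4G that does not bind eIF4E and serves cap-independent initiation, had 10.76, 10.79 and 10.75 in JG-98 macrophages, against 10.60, 10.63 and 10.60 in control macrophages. The 2 groups were tight and apart, and the difference was 0.16 ± 0.060 (limma unadjusted p = 0.035, adjusted p = 0.56). With an intensity trend Eif4g2 passed, together with Eif3c (limma adjusted p = 0.036). Eif4g2 did not pass after median centring (limma adjusted p = 0.90), with a replicate block (0.69) or without any 1 array (0.41 to 0.81). Eif4g3, which does bind eIF4E, had 8.54, 8.51 and 8.44 in JG-98 macrophages, against 8.37, 8.48 and 8.45 in control macrophages, a difference of 0.06 ± 0.068.

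None of the 4 named cap-binding proteins passed the test. Eif4e, the canonical one, had 5.47, 5.37 and 5.44 in JG-98 macrophages, against 5.32, 5.37 and 5.46 in control macrophages, with an interval of the difference from -0.12 to 0.21. Eif4e3 had 6.86, 6.80 and 6.84 in JG-98 macrophages, against 6.91, 6.84 and 6.93 in control macrophages, at -0.06 ± 0.063. Eif4e2, which represses rather than promotes translation, differed by -0.02 ± 0.072. The germline form Eif4e1b lay below the middle of all probe sets, at percentile 47.5 of their means. No detection p-value was used, so whether its values exceeded background cannot be judged.

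Among the helicases, Eif4a2 had 8.17, 8.09 and 8.05 in JG-98 macrophages, against 7.97, 7.99 and 7.94 in control macrophages. The groups did not overlap, and the difference was 0.14 ± 0.065 (limma unadjusted p = 0.074). Eif4a3l1, a copy of the exon junction helicase Eif4a3, had 1.13, 1.07 and 0.67 in JG-98 macrophages, against 1.23, 1.15 and 0.94 in control macrophages, at percentile 0.583 of probe set means. Eif4a1, whose probe set averaged 2.13 on the JG-98 arrays and 1.98 on the control arrays, was also dim, at percentile 13.4. For these dim probe sets neither presence nor change can be judged. The helper proteins Eif4b and Eif4h differed by 0.00 ± 0.065 and -0.02 ± 0.066.

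No eIF4E-binding protein passed the test, and their differences had both signs. Eif4ebp1, a known ATF4 target, had 7.91, 7.80 and 7.67 in JG-98 macrophages, against 7.60, 7.55 and 7.75 in control macrophages. Control replicate 3 lay above JG-98 replicate 3, so the groups overlapped. The difference was 0.16 ± 0.092 (limma unadjusted p = 0.13), and 0.22 without JG-98 replicate 3 (limma unadjusted p = 0.050). Without JG-98 replicate 1 it was 0.10. Eif4ebp2 had 7.79, 7.78 and 7.84 in JG-98 macrophages, against 7.90, 7.99 and 8.05 in control macrophages. Every JG-98 value was below every control value, and the difference was -0.18 ± 0.068 (limma unadjusted p = 0.037, adjusted p = 0.56). Whether the differences of Eif4ebp1 and Eif4ebp2 differ from each other was not tested.

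Eif4ebp3 had 5.31, 5.20 and 5.07 in JG-98 macrophages, against 5.08, 5.05 and 5.34 in control macrophages. Eif4enif1, which encodes 4E-T, a shuttle that carries eIF4E into the nucleus and to P-bodies, had 6.91, 7.14 and 6.93 in JG-98 macrophages, against 6.95, 6.89 and 6.99 in control macrophages. In both genes the groups overlapped, with differences of 0.04 ± 0.11 and 0.05 ± 0.085.

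Among factors of start codon choice and subunit joining, Eif5 had the largest difference of any protein-coding member. Eif5 makes eIF2 hydrolyse its GTP at the start codon, and it had 9.19, 9.25 and 9.04 in JG-98 macrophages, against 8.84, 8.88 and 8.94 in control macrophages. All JG-98 values lay above all controls, with replicate 3 the nearest. The difference was 0.27 ± 0.080, or 1.21-fold (limma unadjusted p = 0.013, adjusted p = 0.45), and 0.33 without that array (limma unadjusted p = 0.0035, adjusted p = 0.30). Without JG-98 replicate 2 it was 0.23. Eif5b, the GTPase that joins the subunits, had 7.96, 7.93 and 7.79 in JG-98 macrophages, against 7.79, 7.74 and 7.89 in control macrophages, at 0.09 ± 0.078.

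Eif1a, which encodes an eIF1A protein of the scanning ribosome, had 7.80, 7.70 and 7.75 in JG-98 macrophages, against 7.58, 7.62 and 7.64 in control macrophages. The groups did not overlap, at 0.14 ± 0.064 (limma unadjusted p = 0.074). Its X-linked relative Eif1ax differed by 0.00 ± 0.093, and Eif1ad and Eif1b by 0.00 ± 0.075 and -0.10 ± 0.13. The pseudogene Eif1-ps3 had 5.79, 5.91 and 5.35 in JG-98 macrophages, against 5.16, 5.41 and 5.43 in control macrophages, at 0.35 ± 0.16. JG-98 replicate 3 lay among the controls, and without it the difference was 0.52 (limma unadjusted p = 0.0039, adjusted p = 0.30). Without JG-98 replicate 2 the difference was 0.24. The probes of Eif1-ps3 may also bind transcripts of near-identical genes, so the source of its signal is uncertain.

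The remaining factors act around elongation and ribosome assembly. Eif5a, the hypusinated factor that helps peptide bonds form, had 7.73, 7.86 and 7.71 in JG-98 macrophages, against 7.68, 7.74 and 7.57 in control macrophages, at 0.10 ± 0.080. Its relative Eif5a2 had 6.84, 6.88 and 6.93 in JG-98 macrophages, against 6.99, 6.81 and 6.86 in control macrophages, at 0.00 ± 0.075. Eif6, which keeps the large ribosomal subunit from joining too early, had 8.68, 8.58 and 8.63 in JG-98 macrophages, against 8.64, 8.64 and 8.71 in control macrophages, at -0.03 ± 0.064. In all 3 genes the groups overlapped. Eif2c5 had a difference of -0.09 ± 0.13 at a level below the middle of all probe sets.

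**Figure D3:**
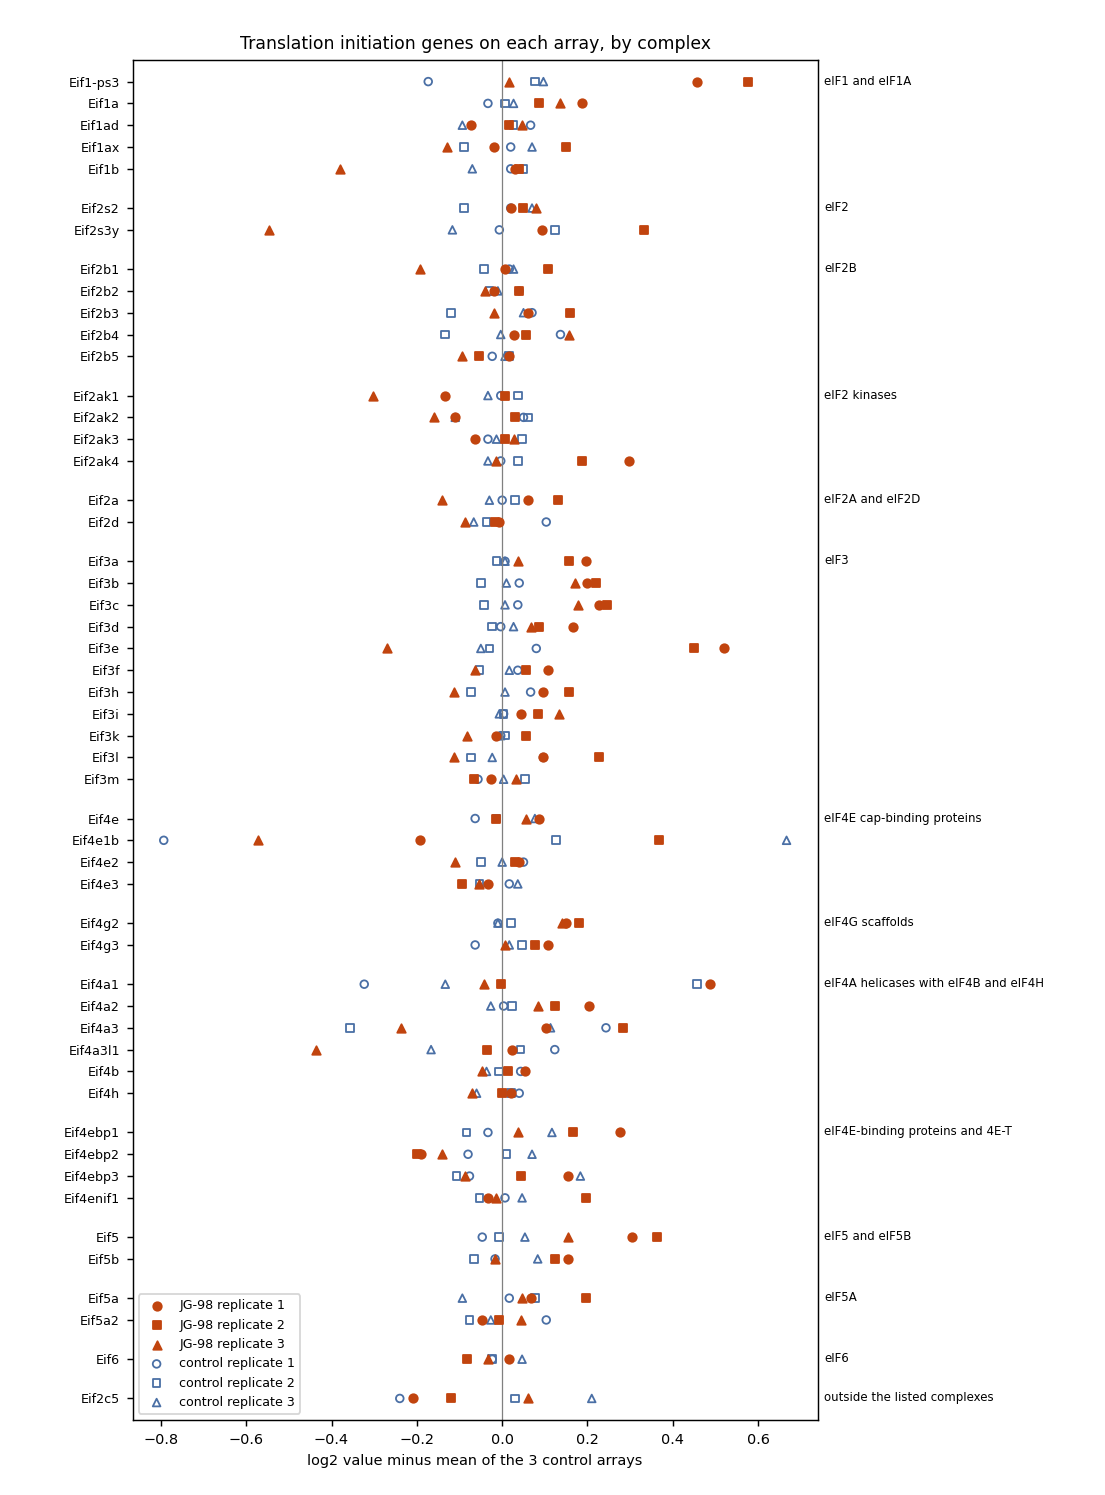
Log2 value of each member on each array minus the mean of the 3 control arrays (x axis), by complex, with JG-98 arrays filled and control arrays open. The JG-98 replicate 3 triangles lie left of the other JG-98 symbols in 37 of the 51 rows, and the symbols of Eif3b, Eif3c, Eif4g2 and Eif5 lie wholly to the right of the controls.

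Array by array, the median member deviated from the control mean by 0.047, 0.079 and -0.031 on JG-98 replicates 1, 2 and 3, and by 0.006, -0.009 and 0.004 on control replicates 1, 2 and 3. For eIF3 those medians were 0.102, 0.155 and 0.034 on the JG-98 arrays, and 0.035, -0.033 and 0.004 on the control arrays. For the eIF2 kinases they were -0.088, 0.019 and -0.086 on the JG-98 arrays, and -0.001, 0.042 and -0.034 on the control arrays. Over all probe sets with a mean of 6 or more, they were 0.007, 0.015 and -0.046 on the JG-98 arrays, and 0.016, -0.009 and -0.006 on the control arrays. JG-98 replicate 3 thus lay lowest of the JG-98 arrays among members and among bright probe sets generally. Over all probe sets it lay highest of them, at 0.027, against -0.013 and -0.018 on JG-98 replicates 1 and 2.

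Without JG-98 replicate 3, still 0 of 51 members passed (smallest limma adjusted p = 0.25), where 0.0198% of all probe sets did. At an unadjusted p under 0.05 there were then 10 members higher and 1 lower, against 5.05% and 6.24% of all probe sets, or 8.66% and 6.44% at a mean of 6 or more. Of the 51 differences 38 were then positive, against 44.9% of all probe sets and 53.7% at a mean of 6 or more. The median difference was then 0.079, against -0.016 over all probe sets and 0.010 over those with a mean of 6 or more. The 18 members whose JG-98 values then all lay above the controls compare with 13.7% of all probe sets and 25.9% of those with a mean of 6 or more.

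Related genes of the pathway, from lists chosen with earlier results of these data known, are given beside the members. Of 8 transcription factors and stress genes downstream of phosphorylated eIF2, 1 rose and 0 fell over all probe sets tested. Over the whole array 0.0317% rose and 0.00793% fell. The median of the list was 0.558, and all 8 differences were above 0, against 50.3% of all probe sets. In 6 of the 8 the groups did not overlap, all upward, against 7.12% of all probe sets. Nupr1, a stress-induced chromatin protein, rose, at 7.81, 7.73 and 7.72 in JG-98 macrophages, against 6.95, 7.01 and 6.99 in control macrophages (0.77 ± 0.064, limma adjusted p = 0.026). That call was lost when any 1 array was left out (limma adjusted p = 0.10 to 0.25), with the replicate block (0.34) and after median centring (0.082), while the difference stayed at 0.74 to 0.80. Atf5 and Ddit3, which encodes CHOP, had differences of 0.68 ± 0.086 and 0.84 ± 0.16 (limma adjusted p = 0.13 and 0.28). Atf4, chosen after its values were seen, had a difference of 0.44 ± 0.088 (limma adjusted p = 0.29).

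Of 13 genes listed as regulators of eIF2 phosphorylation, Trib3 rose. Because ATF4 and CHOP induce this pseudokinase, it is also an output of the pathway, and whether it acts on eIF2 was not tested. It had 6.93, 6.95 and 6.75 in JG-98 macrophages, against 5.25, 5.32 and 5.33 in control macrophages (1.58 ± 0.079, limma adjusted p = 0.0094). The call was lost with the replicate block (limma adjusted p = 0.22) and without any 1 array other than JG-98 replicate 3 (0.084 to 0.15), while the difference stayed at 1.54 to 1.64. The list's median was -0.003. Ppp1r15a, which encodes GADD34, the stress-induced subunit of the eIF2 phosphatase, had 5.82, 5.73 and 5.67 in JG-98 macrophages, against 5.41, 5.09 and 5.21 in control macrophages. The groups did not overlap, at 0.50 ± 0.098 (limma adjusted p = 0.29). Nck2, an adaptor, differed by 0.17 ± 0.075.

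Of 15 genes that feed mTORC1 or MNK signals to eIF4E, 0 passed, with a median of -0.021. Pdcd4, an inhibitor of eIF4A, had 8.61, 8.64 and 8.49 in JG-98 macrophages, against 9.19, 9.25 and 9.10 in control macrophages. Its groups lay well apart, at -0.60 ± 0.076 (limma unadjusted p = 0.00015, adjusted p = 0.13). Larp1, a repressor of ribosomal protein mRNAs, and Deptor, an inhibitor of mTOR, had differences of 0.30 ± 0.060 and -0.33 ± 0.076.

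Of 13 other initiation and poly(A) factors, 0 passed, with a median of 0.040. Bzw2, an eIF5 mimic protein, Ctif, which serves the nuclear cap-binding complex, and Abce1, which recycles ribosomes, had differences of 0.37 ± 0.12, 0.22 ± 0.076 and 0.17 ± 0.065. Of 13 elongation and termination factors, 0 passed, with a median of 0.090. Eef1e1, a partner of the tRNA synthetase complex, had a difference of 0.35 ± 0.069, and Etf1, the release factor, 0.23 ± 0.077. Eef1a1, the main elongation factor, had 5, 5.31 and 3.95 in JG-98 macrophages, against 6.05, 5.72 and 5.67 in control macrophages. It has many near-identical pseudogenes, and its difference of -1.06 ± 0.34 was -0.66 without JG-98 replicate 3.

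**Figure D4:**
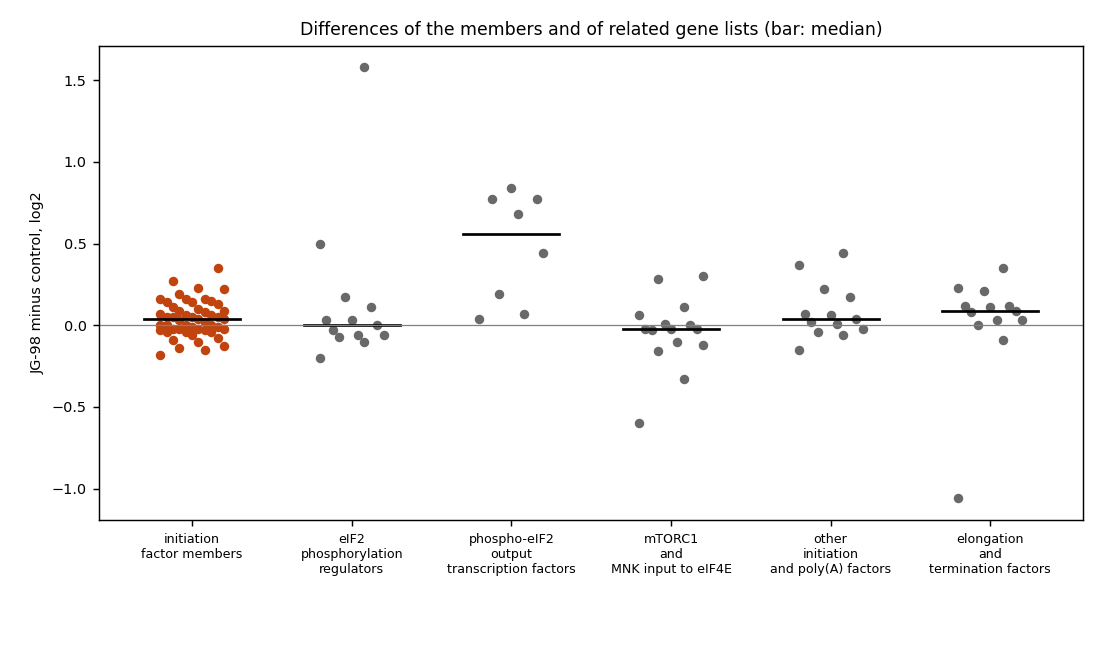
Log2 difference (JG-98 minus control, y axis) of each of the 51 members, in red at the left, and of each gene of the 5 related lists, with bars at the medians. The members lie between -0.18 and 0.35 around a median of 0.039, and the genes downstream of phosphorylated eIF2 have a median of 0.558.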

How the data were processed

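The deposited table holds log2 values for 6 arrays, with 1 row per probe set. The submitters' processing notes name RMA, the affy package and R 2.15.1 without their roles. They carry no build (not given in the sources used here). RMA compresses differences between dim probe sets, and its normalization would remove a shift of all genes together. No detection p-value was used.

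Each probe set carries an Entrez gene number. The annotation used here gave 23185 of the 25206 probe sets 1 symbol, none had several, and the other 2021 were tested unnamed. Symbols were checked in a RefSeq gene table, which also gave the biotypes and, with GRCm38.p6, the promoters.

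JG-98 was tested against control with limma 3.58.1 in R 4.3.3 (two-sided, no covariate), after a test on simulated data. The members and lists were chosen with earlier results of these data known. Values of every array are given for the eIF2 kinases, eIF2 and the eIF4E-binding proteins, and elsewhere for the 2 members of a complex with the smallest p. Other filters, normalizations, variance priors, array weights, a replicate block and leaving out each array were tried as alternatives. Of each related list, up to 3 genes are named. Each further gene named with its difference was chosen after its values were seen. The number of arrays limits the precision.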

Additional observations from a re-analysis of the deposited data

How the results depend on the processing

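Over the settings that could be run for each member, 27 of the 51 kept their sign and 24 did not; filters on level left out the dimmer members. Of the 29 members that the naming rule gives with every array's value, 22 kept it. Filters on level, other variance priors and the replicate block leave each difference unchanged by construction. Only the other settings could turn a sign. The count of probe sets past the threshold was 10, and it was 90 after a filter at the median level, 385 after a filter at 6, 254 with an intensity trend, 25 with array weights, 0 with the replicate block, and 0 to 5 without 1 array. The count of members past the threshold was 1 after the filter at 6 and 2 with the intensity trend, and otherwise 0. The count at an unadjusted p under 0.05, which was 5, was 0 after median centring (against 5.9% of all probe sets), 8 of 43 after the filter at 6 (18.6%, against 22.5%), 10 with the intensity trend (19.6%, against 10.3%), 12 with array weights (23.5%, against 13.5%), 2 with the replicate block (3.92%, against 7.36%) and 2 to 11 without 1 array. The 11 came without JG-98 replicate 3 (21.6%, against 11.3%), and the count was 2 when JG-98 replicate 1 was left out, or control replicate 2, or control replicate 3. Without JG-98 replicate 2 it was 3. The shares over all probe sets include dim ones, while 43 of the 51 members had a mean of 6 or more. In the fit first given, 13.4% of probe sets with such a mean had an unadjusted p under 0.05, against 8.32% of all. The median member difference of 0.039 ran from -0.001 without JG-98 replicate 2 to 0.079 without JG-98 replicate 3. The causes were not tested.

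Among members whose sign turned, differences with all arrays were at most 0.15 in size, and Eif4a1, Eif4e1b and Eif1b, chosen after their values were seen, had the largest, at 0.15, -0.13 and -0.10. Eif2s3y was 0.099 with array weights and -0.227 to 0.213 without 1 array. After quantile normalization Eif2ak3 was 0.009 and Eif5a2 0.008. Without 1 array Eif2ak3 ran from -0.029 to 0.020, Eif5a2 from -0.040 to 0.051, Eif2a from -0.035 to 0.099, Eif2d from -0.070 to 0.014, Eif4ebp3 from -0.018 to 0.130 and Eif4enif1 from -0.025 to 0.092. Deviations of same-numbered arrays from their group means correlated at 0.10, -0.13 and 0.10, and those of differently numbered arrays at -0.23 to 0.20. With 3 arrays per group these values cannot decide whether the replicate numbers pair the samples.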
